A study of Nothobranchius furzeri with 20 samples.

Results

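The most abundant transcripts of killifish skin were taken as the genes whose level averaged 1000 CPM or more over all 20 libraries. CPM are a gene's counted reads scaled to a library total of 1000000 reads. This took 58 genes that averaged 2000 CPM or more and 84 between 1000 and 2000 CPM, together 0.531% of the 26739 genes in the table. They were selected on their measured level, so that level is a description and is not tested. The turquoise killifish (Nothobranchius furzeri) lives for a few months and serves as a model of vertebrate ageing. RNA-seq libraries were made from total RNA of the skin of males of the strain MZM-04/10p, with a kit that selects polyadenylated RNA and does not mark the strand. Of the libraries, 10 were from exercised fish aged 27 weeks, 5 from exercised fish aged 9 weeks and 5 from unexercised fish aged 9 weeks. Exercise was swimming in a swim tunnel, and no unexercised group of 27 weeks is among the samples used here. The 27-week titles form a pair of number runs, JM132 to JM136 (run A, replicates 1 to 5) and JM140 to JM144 (run B, replicates 6 to 10), under one shared label. Each 9-week group is a single title run, so neither exercise nor age can be told apart from whatever else came with those titles. The labels do not say that the libraries came from separate animals, so the p-values speak only for the spread among these libraries.

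The skin of a bony fish is a living epidermis with mucous cells over a dermis rich in collagen, with scales, blood vessels and nerves. In such a mixed tissue a small set of strongly transcribed genes fills much of the library, in vertebrates usually ribosomal protein and translation factor genes, which act in every cell, and the structural genes of the main cell types. Reads are shared out within one total, so a larger share for one abundant transcript leaves a smaller share for the others. The files hold identifiers alone, and 0 of the members matched the gene table used here. No member is therefore given a name or a role, its place in the genome is not given here, and neither the tissue nor an abundant cell type could be checked against its markers.

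Totals were 20597690 to 38619614 counted reads per library. A gene at 1000 CPM thus rests on 20598 to 38620 reads, a counting error (Poisson) of 0.509% to 0.697%, which covers counting only and no other technical variation. The lowest count of any member in any library was 195. Every member was tested in every comparison. The 3 members nearest the limit averaged 1019, 1015 and 1007 CPM, and the 3 genes just under it 995, 994 and 989.9 CPM, so the limit divides a continuous scale.

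The members held 44.6% ± 3.71 of all counted reads (SD, n = 20), with a lowest share of 38.1% and a highest of 51.5%. The share was 42.7% ± 2.77 in run A, 48.2% ± 2.68 in run B, 44.7% ± 4.07 in exercised 9-week libraries and 42.7% ± 2.87 in unexercised 9-week libraries (SD, n = 5 each). Run B ranged from 45.1% to 51.5% and run A from 38.1% to 45.6%, so these ranges met only at their edges. The 9-week ranges, 39.0% to 49.7% with exercise and 38.8% to 46.3% without, overlapped widely. To reach 50% of its reads a library needed as many as 368 genes and at the median 208.5, on average 255 ± 66.2 in run A, 158 ± 28.5 in run B, 211 ± 66.2 in exercised and 243 ± 55.2 in unexercised 9-week libraries (SD, n = 5 each).

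**Figure D1:**
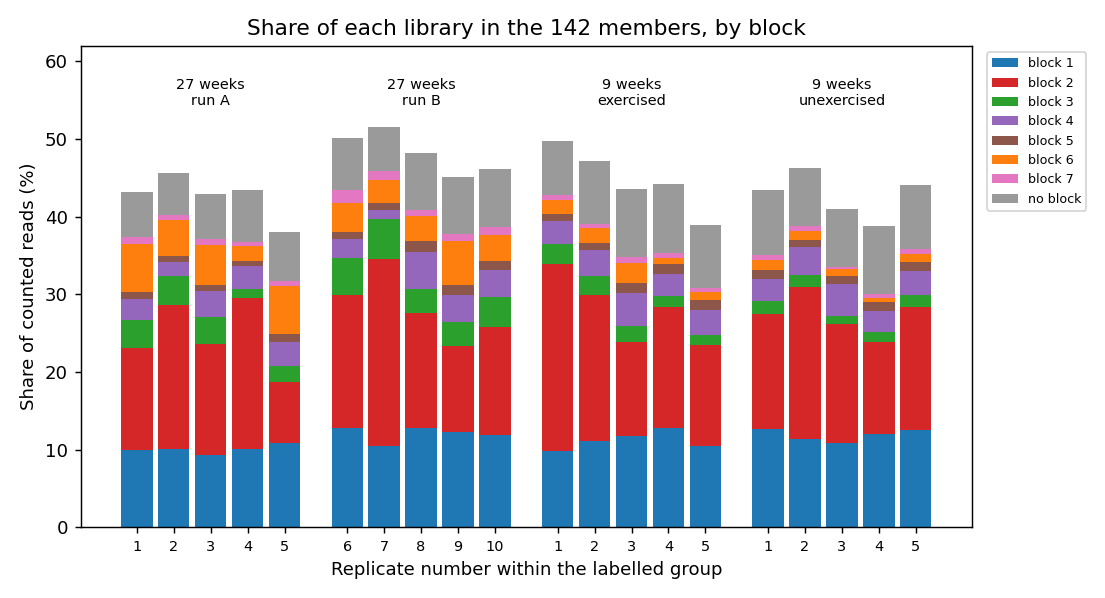
Share of counted reads (%) held by the members in each library, stacked by the blocks of members that vary together, for the 5 libraries of each title run. The totals run from 38.1% to 51.5%, and run B is highest on average at 48.2%.

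The levels fell off steeply within the set. An average of 10000 CPM or more was reached by 8 members and one of 5000 CPM by 16. The 10 highest members held 16.02% ± 2.03 of all reads (SD, n = 20). Nfu_g_1_002091, the most abundant, averaged 37488 CPM, or 3.75% of all reads. Its levels were 19956, 29711, 34205, 35754 and 46531 CPM in run A and 29299, 34225, 37465, 44516 and 62984 CPM in run B. They were 29348, 29606, 37157, 42968 and 51209 CPM in exercised 9-week libraries and 24665, 36611, 38842, 39364 and 45336 CPM in unexercised 9-week libraries. All 4 sets overlapped, and the spread between libraries of one set was larger than any difference between sets. This gene had the highest level in 17 of 20 libraries, and 4 genes held that place in at least one library.

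**Figure D2:**
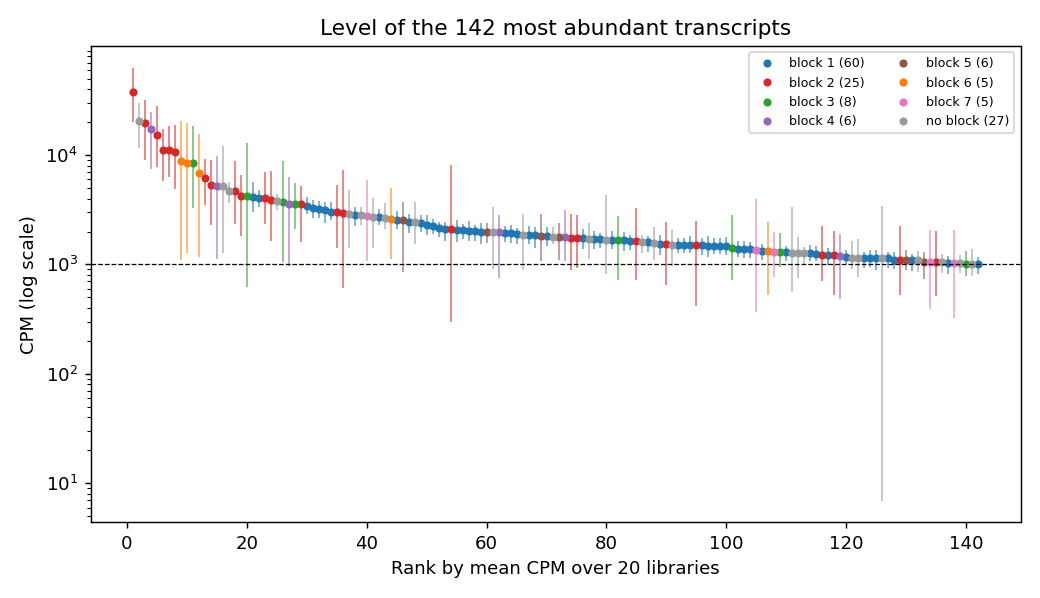
Mean CPM (log scale) of each member by rank, with a vertical line from its lowest to its highest library and the color of its block; the dashed line is 1000 CPM. Lines are short for block 1 and long for block 6, and the longest belongs to Nfu_g_1_022498, from 6.94 to 3392 CPM.

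Members were chosen on their mean over the libraries of both ages. That most of them reach 1000 CPM in each title run thus follows in part from the rule, and the counts here are a description. In every one of the 20 libraries 93 members reached 1000 CPM, and 97 stood in every library among its highest genes, taking as many genes as the set has members. An average of 1000 CPM was reached in 3 of the 4 title runs by 13 members, in 2 by 9 and in a single run by 1, and in all 4 by the rest. The members averaging less were 12 in run A, 4 in run B, 10 in exercised and 8 in unexercised 9-week libraries. In exchange 4 other genes averaged 1000 CPM or more in run A, 13 in run B, 6 in exercised and 10 in unexercised 9-week libraries. The highest CPM of a member over libraries was 1.71 times its lowest at the median of the set. For 76 members this ratio was under 2, for 19 over 5 and for 8 over 10.

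Per length, the order was another one. The gene length behind the authors' RPKM table (reads per kilobase of gene, scaled to the library total) could be worked out for all members, and RPKM was then recomputed with each library's own total. Nfu_g_1_019445, with a length of 0.342 kb, had the highest level per length at 30885 RPKM, although its 10563 CPM put it at rank 8. Nfu_g_1_002091, with a length of 1.81 kb, came next at 20677 RPKM. Nfu_g_1_019445 had 4849, 7789.6, 8024, 8854 and 10738 CPM in run A and 6652, 7878, 10059.8, 11213 and 12385 CPM in run B. Exercised 9-week libraries had 9238, 10097, 12577, 14832 and 18759.9 CPM and unexercised ones 9095, 11184, 11565, 11684 and 13782 CPM. The sets overlapped, and the 27-week values were on average the lower ones. In the edgeR test described below, it was called lower in run A than in exercised 9-week libraries (log2 fold change -0.81, adjusted p = 0.0394 by edgeR). It was not called in run B (-0.28, adjusted p = 0.526 by edgeR) or with both runs pooled (-0.53, adjusted p = 0.157 by edgeR). Ranked by RPKM, 110 members would still be in a set of this size and 32 would not. The lowest of those, a gene of 88.5 kb, had rank 1030 per length, so a level in CPM reflects length as well as transcript number.

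At the median the members were shorter and varied less than other genes. Their median length was 1.73 kb, against 2.82 kb for the 16648 other genes that averaged at least 1 CPM, and 34.5% of them were under 1 kb, against 15.6% of the others. The SD of log2(CPM + 1) between libraries of one title run had a median of 0.173 among members and of 0.256 among the others. It was under 0.2 for 54.9% of members and for 29.3% of the others. Its upper quartile was 0.399 among members and 0.369 among the others, so low spread was not a trait of all members. Higher counts carry less counting error, so these differences are a description of level and spread together and were given no test.

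Members fell into blocks that rose and fell together from library to library. Blocks were drawn from the correlation of log2(CPM + 1), centred within each title run over 20 libraries (average linkage at a distance of 0.3, at least 5 members), so they use no difference between runs. They were drawn from the same values they describe and are not tested, and all share the libraries and their totals. There were 7 blocks, and 27 members fell in none. Block 1 held 60 members that hardly varied, with a median SD of 0.115 within runs and a range from 0.0945 to 0.171. They were also the shortest, with a median of 0.82 kb and 37 of 60 under 1 kb, and their median pairwise correlation was 0.875. They took 10.1% ± 0.546 of reads in run A, 12.1% ± 0.944 in run B, 11.2% ± 1.11 in exercised and 11.9% ± 0.768 in unexercised 9-week libraries (SD, n = 5 each).

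Block 2 held 25 members, among them Nfu_g_1_002091 and Nfu_g_1_019445, and took the share that varied most in percentage points. That share ran from 7.89% to 24.1% over the 20 libraries, a 3.05-fold range, while as a ratio the shares of blocks 3, 4, 6 and 7 varied more. It averaged 14.7% ± 4.65 in run A, 16.2% ± 4.86 in run B, 16.7% ± 4.86 in exercised and 15.5% ± 2.73 in unexercised 9-week libraries (SD, n = 5 each), so libraries of one run differed more than the runs did. The median SD of its members was 0.434, and their lengths ran from 0.33 to 88.5 kb with a median of 1.98 kb. Between members of blocks 1 and 2 the median correlation was -0.446, and between those of blocks 2 and 5 it was -0.721. Part of a negative correlation is built in, since all shares of a library add up to one total. In bulk tissue, fewer cells of a type and less RNA per cell cannot be told apart, here and in all results that follow.

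The smaller blocks took less of the library. Block 4, of 6 members between 1.34 and 10.7 kb, held 2.74% ± 0.595 of reads in run A, 3.08% ± 1.36 in run B, 3.36% ± 0.554 in exercised and 3.26% ± 0.552 in unexercised 9-week libraries (SD, n = 5 each). Block 5, of 6 members, held 0.838% ± 0.117 in run A, 1.10% ± 0.254 in run B, 1.11% ± 0.192 in exercised and 1.08% ± 0.129 in unexercised 9-week libraries (SD, n = 5 each). Block 7, of 5 members, held 0.725% ± 0.171 in run A, 1.10% ± 0.316 in run B, 0.607% ± 0.0573 in exercised and 0.566% ± 0.169 in unexercised 9-week libraries (SD, n = 5 each). The 27 members of no block held 5.98% ± 0.522 in run A and 6.91% ± 0.764 in run B, against 8.18% ± 0.774 in exercised and 8.07% ± 0.575 in unexercised 9-week libraries (SD, n = 5 each). Their share in run A, at most 6.70%, was below that of all 9-week libraries, at least 6.97%. Such a share is weighted by level. The highest of these members, Nfu_g_1_019825, averaged 20397 CPM against a median of 1687 CPM among them, so the share need not describe most of the 27.

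**Figure D3:**
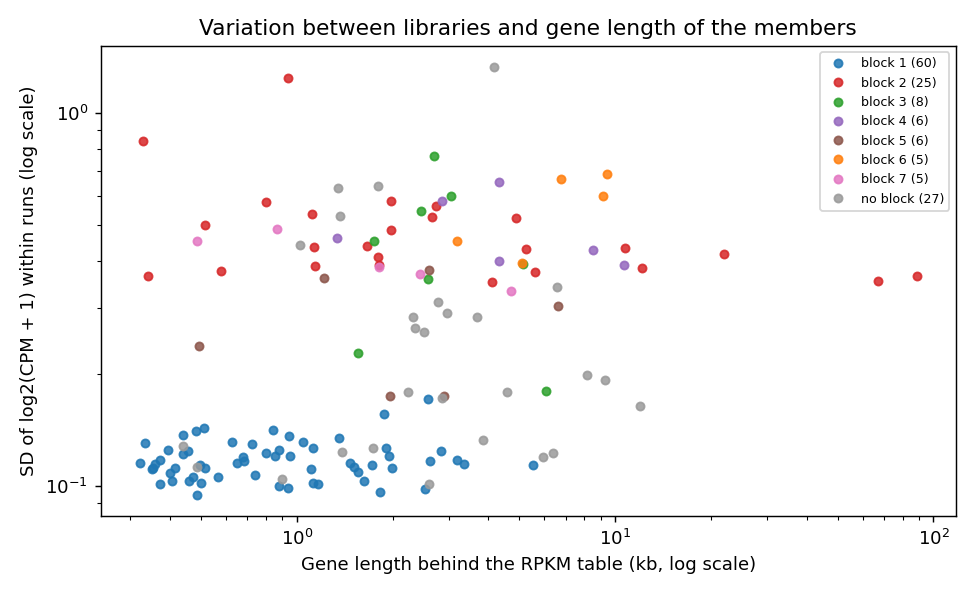
SD of log2(CPM + 1) within title runs against gene length in kb, both on log scales, one point per member, colored by block. The 60 members of block 1 sit at the bottom, at SDs of 0.0945 to 0.171 and mostly under 1 kb, and Nfu_g_1_022498 is highest at 1.33.

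The steadiest member, Nfu_g_1_016692 of block 1 (0.488 kb), had 1255, 1342, 1416, 1420.1 and 1443 CPM in run A and 1471, 1579, 1581, 1645 and 1751 CPM in run B. Exercised 9-week libraries had 1340.3, 1365, 1476, 1478 and 1655 CPM and unexercised ones 1307, 1409.9, 1467, 1468 and 1494 CPM. All 20 values thus lie within a narrow band, with run A wholly below run B. The most variable member, Nfu_g_1_022498 of no block (4.16 kb), had 1671, 2085, 2245, 2288 and 3392 CPM in run A and 1031, 1172, 1367, 1376 and 2673 CPM in run B. Exercised 9-week libraries had 131, 172, 472, 832 and 972 CPM and unexercised ones 6.94, 104, 108, 182 and 506 CPM. All 10 libraries of 27 weeks were above all 10 of 9 weeks, and the highest was 488 times the lowest. Its 9-week levels were all under 1000 CPM, so it is in the set through its 27-week level, and its difference with age is not independent of how members were chosen.

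Differences between groups were tested on the counts of all genes with edgeR's quasi-likelihood test, with p-values adjusted over all genes tested by the method of Benjamini and Hochberg and a threshold of 0.05. Fold changes in that test are on a scale set by TMM factors (a scaling that brings the bulk of genes to a common level), while CPM are scaled by library totals alone. Computed over all 20 libraries together, TMM factors lay between 1.02 and 1.23 in run A and between 0.841 and 0.942 in run B. In the 9-week libraries they lay between 0.910 and 1.20, so the 2 scales part most between the runs. Each test computed its own factors from the compared libraries and the genes tested, and those are not given here. The members are no independent sample of genes, and their counts are set beside those of all genes tested without a test. A member above 1000 CPM in one compared group and below it in the other can be in the set because of that difference, so its call is not independent of how members were chosen. This held for 8 of the 20 calls with age, 10 of 43 in run A and 6 of 16 in run B against exercised 9-week libraries, and 9 of 91 between the runs.

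The first comparison asked whether exercise moved the abundant transcripts at 9 weeks. No member passed the threshold in either direction. Among all 18520 genes tested 0.0054% were higher and 0.0054% lower, and 0.0% passed the threshold with a difference of more than 2-fold. At an unadjusted p under 0.05 there were 7 members (4.93%), 6 higher and 1 lower, against 2739 of all genes (14.8%). DESeq2 called 1 member higher, of block 6, where it called 1.28% of all genes higher and 1.2% lower. With limma-voom no member was called, and 0.0054% of all genes in each direction. The median absolute log2 fold change was 0.083 for members and 0.172 for all genes. The 5 members of block 6 had log2 fold changes of 0.40 to 0.84, with the smallest adjusted p of all members at 0.130, and the 8 of block 3 had values of 0.01 to 1.26. These values did not pass, which does not show that exercise left the levels alike.

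The second comparison set exercised fish of 27 weeks against those of 9 weeks. Of all members, 13 rose (9.15%) and 7 fell (4.93%) with age, while 13.2% of all 18801 genes tested rose and 11.3% fell. Among the calls, 8 members rose and 1 fell by more than 2-fold (6.34%). Calls of that size were made for 8.07% of all genes in either direction. The median absolute log2 fold change was 0.086 for members and 0.373 for all genes, which include genes of low count. The pooled comparison averages both runs, in which the median log2 fold changes of members had opposite signs, as given below. It has no term for the run, so differences between the runs add to its spread. One fit of all 20 libraries with the runs kept apart called 15 members higher and 10 lower with age. Of all 19140 genes in that fit 3930 were higher and 3833 lower. The 13 rises of the pooled comparison sat in a few blocks. All 5 members of block 6 rose, 4 of 8 in block 3, 2 of 5 in block 7 and 2 of the 27 outside any block. The rises of block 7 (Nfu_g_1_003267 and Nfu_g_1_018182) and those outside any block (Nfu_g_1_006862 and Nfu_g_1_022498) averaged under 1000 CPM in one compared group. So did Nfu_g_1_004335 of block 6 and Nfu_g_1_022871 of block 3. These 6 rises are thus not independent of how members were chosen. None of the 60 members of block 1 was called, with log2 fold changes of -0.14 to 0.13. Of the falls, 6 were outside any block and 1 was in block 2. The falls of Nfu_g_1_000099 and Nfu_g_1_001619 are tied to the limit for members in the same way as the 6 rises.

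These counts depended on single libraries. The rises numbered 7 without replicate 1 and 8 without replicate 7 of 27 weeks, and 6, 7, 6 and 6 without replicates 2, 3, 4 and 5 of the exercised 9-week group. The falls numbered 3, 3, 1 and 4 without the same 4 libraries of 9 weeks. Calls of all genes moved as well, from 2487 higher and 2122 lower in the full comparison. Without those 4 libraries of 9 weeks 1601, 1432, 1269 and 1404 genes rose and 1523, 1381, 1198 and 1343 fell. Without replicate 1 or replicate 7 of 27 weeks 1978 and 2755 genes rose. Block 6 kept 4 or 5 of its 5 calls with any one library left out. Block 3 had 0 calls without replicate 1 of 27 weeks and without each of replicates 2 to 5 of the exercised 9-week group, and 1 or 2 without replicates 2, 3, 6, 7 or 10 of 27 weeks. The 2 calls of block 7 came down to 0 without replicate 1, 7 or 10 of 27 weeks and without each of replicates 2 to 5 of the exercised 9-week group, and to 1 without replicate 6 or 9 of 27 weeks or replicate 1 of the exercised 9-week group. Block 7 had 3 calls without replicate 4 of 27 weeks.

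Block 6 took 4.82% ± 1.801 of reads in run A, 3.82% ± 1.048 in run B, 1.63% ± 0.732 in exercised and 0.970% ± 0.286 in unexercised 9-week libraries (SD, n = 5 each). Over single libraries its share ran from 0.522% to 6.27%, a 12-fold range. Its 5 members were 3.20 to 9.46 kb long, and 3 of them stood at ranks 9, 10 and 12 of the whole table. Nfu_g_1_023149, at rank 10, had 5559, 14746, 16382, 19425 and 19518 CPM in run A and 8964, 10109.7, 10173, 12283 and 17564 CPM in run B. Exercised 9-week libraries had 1827, 2650.3, 5102, 5123 and 7918 CPM and unexercised ones 1280.1, 2427, 2619, 3297 and 3520.1 CPM. Replicate 4 of 27 weeks, at 5559 CPM, was the one older library inside the exercised 9-week range, and the other 9 were above it. The log2 fold change with age was 1.57 (SE 0.34, adjusted p = 0.00719 by edgeR). It was 1.62 in run A (SE 0.422, adjusted p = 0.00819 by edgeR) and 1.53 in run B (SE 0.368, adjusted p = 0.0200 by edgeR) against the same exercised 9-week libraries.

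Nfu_g_1_022498, whose levels are given above, had the largest log2 fold change with age of all called members, 1.87. Against the same exercised 9-week libraries it was 2.04 in run A and 1.68 in run B, and in run B alone it was not called. These values are a description with no test, since the gene entered the set through its 27-week level. Its exercise contrast at 9 weeks had a log2 fold change of 1.55 (SE 0.93, adjusted p = 0.451 by edgeR), on 5 exercised and 5 unexercised values that overlapped.

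Nfu_g_1_019825, the next most abundant member (2.31 kb, no block), was called lower with age in the pooled comparison and in run A, but not in run B. It had 11979.5, 12313, 12414, 17630.3 and 18578 CPM in run A and 11604, 14639, 18986, 20138 and 21539.9 CPM in run B. Exercised 9-week libraries had 21615, 24618, 26223, 26888 and 29173 CPM and unexercised ones 19492, 20825, 23342, 26106 and 29843 CPM. All 10 libraries of 27 weeks were below all 5 exercised ones of 9 weeks, while the unexercised 9-week range overlapped that of run B. The margin was narrow, with 21539.9 CPM in run B next to 21615 CPM at 9 weeks. How many of all genes part these groups in this way was not counted. The log2 fold change with age was -0.64 (SE 0.18, adjusted p = 0.0198 by edgeR). Against the same exercised 9-week libraries it was -0.91 in run A (SE 0.159, adjusted p = 0.000698 by edgeR). In run B it was -0.41 (SE 0.156, adjusted p = 0.097 by edgeR). The gene averaged 15982 ± 3798 CPM at 27 weeks (SD, n = 10) and 25703 ± 2811 CPM in exercised 9-week libraries (SD, n = 5).

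The steepest called falls with age were those of Nfu_g_1_014183 (1.798 kb, no block) and Nfu_g_1_000099 (1.81 kb, block 2). Nfu_g_1_014183 had 1283, 2039, 2539.9, 3152 and 5859.5 CPM in run A and 1425, 3255, 3727, 4196 and 6265 CPM in run B, against 4709, 5717, 7918, 10906 and 12089.6 CPM in exercised 9-week libraries. One library of each 27-week run lay inside the 9-week range. The log2 fold change was -1.24 (SE 0.35, adjusted p = 0.0208 by edgeR), and the call was lost without replicate 2 or replicate 3 of the exercised 9-week group, at an adjusted p of up to 0.0629. Nfu_g_1_000099 averaged 725 ± 372 CPM in run A and 1209 ± 211 CPM in run B, against 1957 ± 496 CPM in exercised 9-week libraries (SD, n = 5 each). Its log2 fold change of -0.95 (SE 0.335, adjusted p = 0.0499 by edgeR) lay at the threshold and was lost in 16 of 22 alternatives, at an adjusted p of up to 0.121. Its 27-week mean, 967 CPM, was under the limit for members, so this call too is tied to how members were chosen. With exercise at 9 weeks Nfu_g_1_014183 had a log2 fold change of 0.56, which was not called (SE 0.234, adjusted p = 0.315 by edgeR). Its fall was thus set against the 9-week group in which it stood higher. For Nfu_g_1_000099 the exercise value was -0.02 (SE 0.231, adjusted p = 0.970 by edgeR).

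Each 27-week run was then set against the exercised 9-week libraries by itself, and both contrasts share those 5 libraries. In run A 7 members rose (4.93%) and 36 fell (25.4%), against 25.9% and 24.5% of all 18348 genes tested. In run B 16 members rose (11.3%) and 0 fell, against 8.42% and 7.63% of all 18234 genes. Of these calls, 5 rises and 4 falls in run A were more than 2-fold, where 19.9% of all genes had calls of that size. In run B 13 rises were more than 2-fold, against calls of that size for 3.74% of all genes. At an unadjusted p under 0.05, 5 members were lower in run B, limma-voom called 0 lower (7.4% of all genes), and DESeq2 called 4 lower and 54 higher (10.4% and 11.1% of all genes). The median log2 fold change of members was -0.24 in run A and 0.26 in run B, and that of all genes -0.01 and 0.0009. The median absolute log2 fold change was 0.27 for members and 0.52 for all genes in run A, and 0.29 and 0.26 in run B. The members thus lay low in one run and high in the other relative to genes at large.

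The falls of run A moved with single libraries. Without replicate 1 or 3 of 27 weeks 21 and 23 members fell, and without replicates 1 to 5 of the exercised 9-week group 21, 18, 19, 23 and 69. Of all genes, 4492 fell in the full comparison, and 4125 and 4391 without replicate 1 or 3 of 27 weeks. Without replicates 1 to 5 of the exercised 9-week group 4023, 3759, 3771, 4058 and 4154 genes fell. Block 1 held 15 of the 36 falls, and this number lay between 1 and 45 when one library was left out, lowest without replicate 2 and highest without replicate 5 of the exercised 9-week group. With library totals alone 21 members fell, 3 of them in block 1, and 3452 of all 18348 genes fell. DESeq2 called 57 lower, 34 of them in block 1, and 23.7% of all genes. All 60 members of block 1 lay below exercised 9-week libraries in run A and above them in run B. Their median log2 fold changes were -0.24 and 0.29. At an unadjusted p under 0.05, 27 were lower in run A and 38 higher in run B (56.4% and 32.5% of all genes in either direction). DESeq2 called 33 of them higher in run B, against 11.1% of all genes. With library totals alone 56 of the 60 lay higher in run B and 0 were called.

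Outside block 1, 14 of the 36 falls of run A were members of no block, 3 were among the 6 of block 4, 2 among the 6 of block 5 and 2 among the 25 of block 2. The rises of run A were all 5 of block 6 and 2 of no block, and run B had 1 rise in block 1 and 1 outside any block beside those that follow. Block 6 had 5 of 5 members higher in each, with median log2 fold changes of 1.51 in run A and 1.41 in run B. With one library left out, 3 to 5 of them stayed called in run A and 4 or 5 in run B. The lowest number in run A, 3, came without replicate 1, 3 or 5 of 27 weeks or replicate 4 or 5 of the exercised 9-week group. Block 3 had 0 of 8 members called in run A and 5 higher in run B, and block 7 had 0 and 4 of 5. Uncalled in run A, 7 of the 8 in block 3 and 4 of the 5 in block 7 yet had log2 fold changes above 0. Their block medians there were 0.37 and 0.19. Of the run B calls in these blocks, Nfu_g_1_022871 of block 3 and Nfu_g_1_001984, Nfu_g_1_003267 and Nfu_g_1_018182 of block 7 averaged under 1000 CPM in exercised 9-week libraries. Those calls are not independent of how members were chosen. The same held for Nfu_g_1_004335 of block 6 and Nfu_g_1_006862 of no block in each run, and for Nfu_g_1_022498 in run A. Likewise, 7 falls of run A were of members averaging under 1000 CPM in one compared group alone. They were Nfu_g_1_000099, Nfu_g_1_001619, Nfu_g_1_004202, Nfu_g_1_004305, Nfu_g_1_008638, Nfu_g_1_009608 and Nfu_g_1_015905. With one library left out, block 3 had 3 to 5 rises in run B, the 3 without replicate 4 of the exercised 9-week group. In run A it had 2 rises without replicate 4 of 27 weeks and 1 without replicate 1 of the exercised 9-week group, and 1 fall without replicate 5 of that group. Block 7 had 1 rise in run A without replicate 1 of that group, and 3 in run B without replicate 4. The share of block 3 was 2.82% ± 1.11 in run A, 3.96% ± 0.980 in run B, 1.93% ± 0.592 in exercised and 1.41% ± 0.253 in unexercised 9-week libraries (SD, n = 5 each). The largest called rises of run B were both in block 3. Nfu_g_1_012105 (2.70 kb) had 4330.3, 6008, 6329, 6409 and 12986 CPM in run B, against 1490.2, 1528, 2738, 2942 and 4353 CPM in exercised 9-week libraries. One library of run B lay just under the highest of 9 weeks, and the log2 fold change was 1.63 (SE 0.405, adjusted p = 0.0231 by edgeR). Without replicate 4 of the exercised 9-week group the adjusted p was 0.0549. Nfu_g_1_012105 also lay above exercised 9-week libraries in run A, uncalled, with a log2 fold change of 1.03 (SE 0.468, adjusted p = 0.0896 by edgeR). With exercise at 9 weeks its log2 fold change was 1.26, also uncalled (SE 0.456, adjusted p = 0.279 by edgeR).

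Nfu_g_1_023427 (2.47 kb), the most abundant member of block 3 and rank 11 of the table, had 10578, 11030.5, 14791, 17861 and 18566 CPM in run B. Run A had 3401, 6652, 10716, 10932 and 13369 CPM. Exercised 9-week libraries had 3412, 3835, 5575, 7338 and 7402 CPM and unexercised ones 3269, 3409, 5099, 5262 and 5760.0 CPM. All of run B was above all 9-week libraries, while run A overlapped both. The log2 fold change over exercised 9-week libraries was 1.56 in run B (SE 0.31, adjusted p = 0.00988 by edgeR) and 0.59 in run A (SE 0.382, adjusted p = 0.220 by edgeR). Between run A and run B it was -0.98 (SE 0.358, adjusted p = 0.0479 by edgeR).

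**Figure D4:**
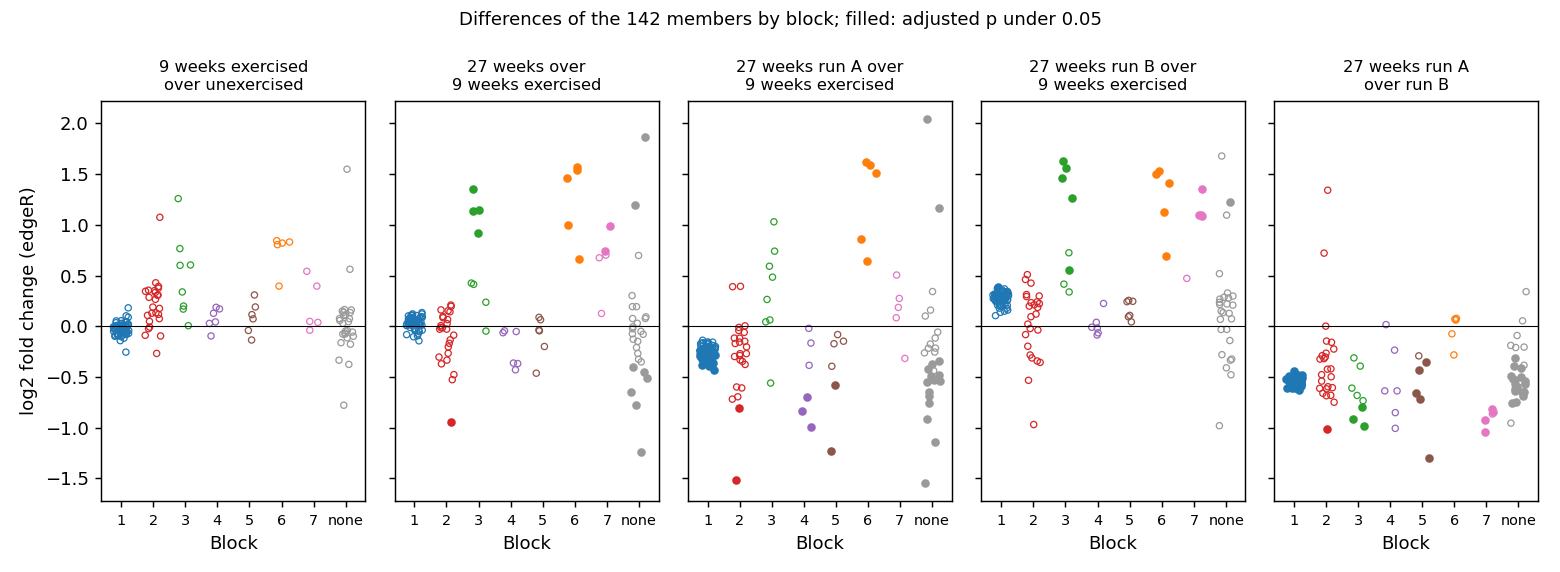
Log2 fold changes (edgeR) of all members by block in the 5 comparisons, one point per member, filled where the adjusted p was under 0.05. Block 6 is wholly filled and above 0 in the age comparison and in both runs against exercised 9-week libraries, and all 60 points of block 1 are filled and below 0 between run A and run B.

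Between the 27-week runs, which share one label, 91 members were lower in run A than in run B (64.1%) and 0 were higher. Of all 18306 genes tested 20.3% were lower and 21.2% higher. Called differences of more than 2-fold were found for 3 members (2.11%), against 13.0% of all genes, so the called differences of members were frequent and small. All genes tested include genes of low count, in which a small difference is harder to call than in members (median SE 0.13). The shares of calls are thus not matched for level. The called members had a median absolute log2 fold change of 0.56. At an unadjusted p under 0.05, 0 members were higher, and DESeq2 and limma-voom called 0 higher (21.1% and 20.9% of all genes) and 99 and 90 lower (20.0% and 20.6% of all genes). The median log2 fold change was -0.55 for members and -0.05 for all genes. All 60 members of block 1 were called, with log2 fold changes between -0.63 and -0.44, as were 5 of 6 in block 5, 4 of 5 in block 7, 3 of 8 in block 3, 1 of 25 in block 2 and 18 of 27 outside any block. Block 6 had 0 of 5 called, with values of -0.28 to 0.08. Of the 91 calls, 9 were of members averaging under 1000 CPM in one of the runs alone. They were Nfu_g_1_016446 of block 1, Nfu_g_1_000099, Nfu_g_1_001984, Nfu_g_1_004202, Nfu_g_1_008638, Nfu_g_1_009608, Nfu_g_1_012648, Nfu_g_1_015905 and Nfu_g_1_020209. These calls are not independent of how members were chosen. The 3 calls of block 3 came down to 1 without replicate 3, 4, 5, 6, 7 or 10 and 2 without replicate 8.

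The size of this difference depended on the scaling. With library totals alone and no TMM factor, 30 members were lower and 0 higher, and 21 of the 60 in block 1 were called. All 60 kept a negative log2 fold change, with a median of -0.26 in place of -0.55. The same change of scale moved the median of all genes to 0.24, and 5869 genes were then higher and 1640 lower in run A, in place of 3889 and 3724. Relative to that median block 1 lay lower under both scales. This adds no support, since a change of scaling factors shifts all genes nearly alike and could hardly alter that gap. TMM factors computed from the genes that are no members gave 91 members lower, 60 of them in block 1. Leaving out any one library of the 10 kept all 60 calls of block 1.

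Nfu_g_1_016049 (2.58 kb), the most abundant member of block 1, had 3025, 3184, 3321, 3532 and 3634 CPM in run A and 3100.3, 4113, 4164, 4312 and 4329 CPM in run B. Replicate 7 was the one library of run B inside the range of run A, and the log2 fold change was -0.55 (SE 0.117, adjusted p = 0.00357 by edgeR). Exercised 9-week libraries averaged 4085 ± 587 CPM and unexercised ones 5051 ± 504 CPM (SD, n = 5 each), a log2 fold change of -0.25 with exercise that did not pass (SE 0.123, adjusted p = 0.361 by edgeR). For Nfu_g_1_016692, the steadiest member, the log2 fold change between the runs was -0.51 (SE 0.102, adjusted p = 0.00237 by edgeR).

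The largest called differences between the runs were those of Nfu_g_1_015914 (1.22 kb, block 5) and Nfu_g_1_001984 (0.486 kb, block 7). Nfu_g_1_015914 had 862, 1426, 1453, 1539 and 1674 CPM in run A and 1902, 2000.3, 3058, 3526 and 3664 CPM in run B. Exercised 9-week libraries had 2114, 2543, 3433, 3563 and 3699 CPM and unexercised ones 2287, 2779.6, 2896, 3194 and 3449.6 CPM. Run A lay below all other libraries, and the log2 fold change between the runs was -1.30 (SE 0.217, adjusted p = 0.000835 by edgeR). Against exercised 9-week libraries it was -1.23 in run A (SE 0.189, adjusted p = 0.000291 by edgeR) and 0.04 in run B (SE 0.199, adjusted p = 0.906 by edgeR). Pooling both runs as one age group gave a log2 fold change of -0.46 (SE 0.318, adjusted p = 0.293 by edgeR), so the pooled comparison did not call this member.

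Nfu_g_1_001984 had 468, 754, 1073, 1273 and 1302 CPM in run A and 1215, 1524, 1585, 1687 and 2086 CPM in run B. Exercised 9-week libraries had 688, 784, 816, 966 and 996 CPM, and unexercised ones averaged 666 ± 209.9 CPM (SD, n = 5). Run B stood above all exercised 9-week libraries and one of its libraries lay inside the range of run A. Its mean passed 1000 CPM in run B alone, at 1619 ± 315 CPM, against 974 ± 357 CPM in run A and 850 ± 128.8 CPM in exercised 9-week libraries (SD, n = 5 each). It is thus in the set through run B, and its differences from run B are a description with no test. The log2 fold change was -1.04 between run A and run B, and against exercised 9-week libraries 0.08 in run A and 1.10 in run B.

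**Figure D5:**
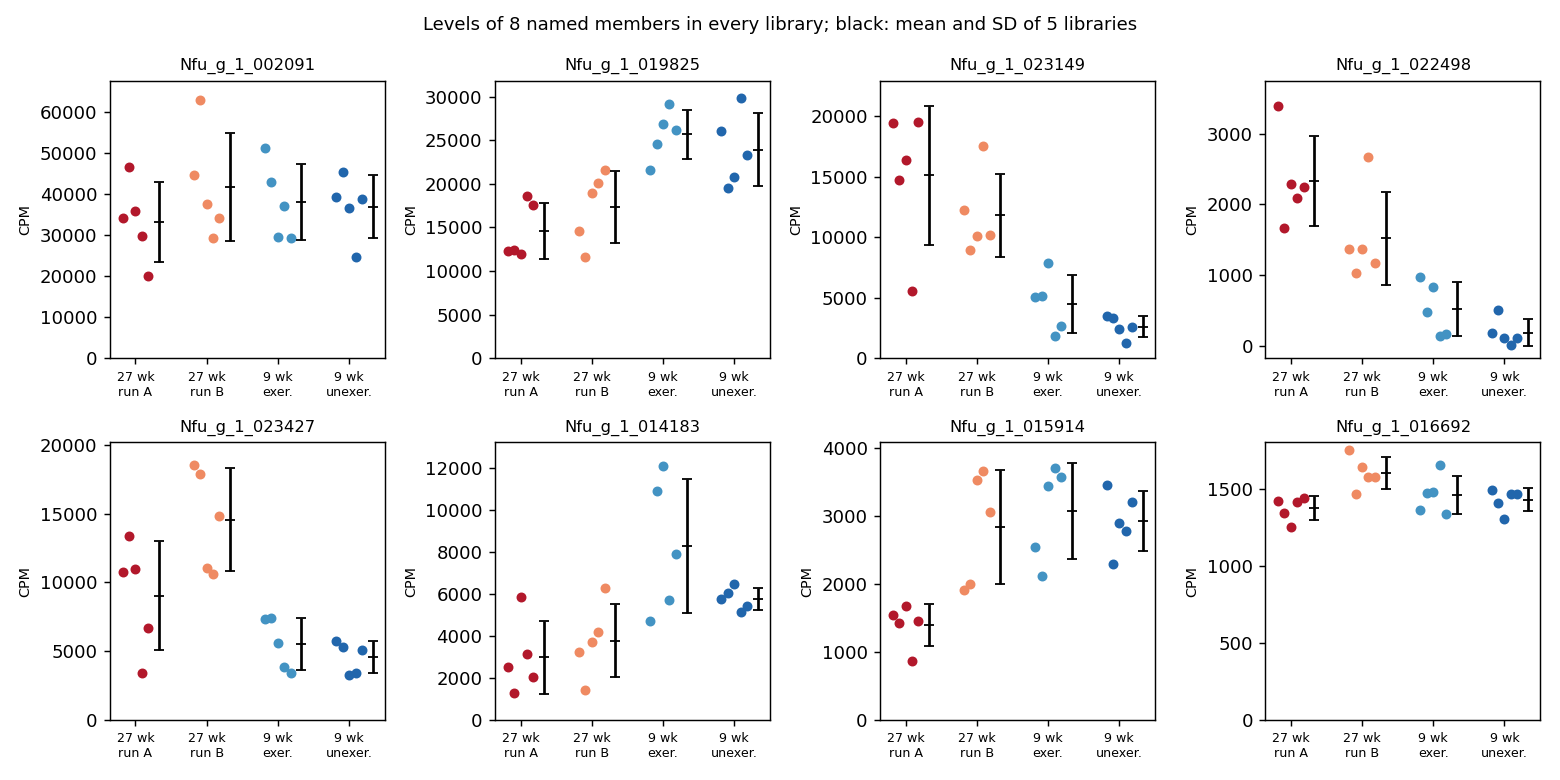
CPM of 8 members in every library by title run, each panel with its own axis, with the mean and SD of 5 libraries in black. Nfu_g_1_022498 keeps all 27-week libraries apart from the exercised 9-week ones, but it is in the set through its 27-week level. Nfu_g_1_019825 keeps them apart by a narrow margin, and Nfu_g_1_015914 keeps run A, at 862 to 1674 CPM, below all other libraries.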

How the data were processed

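Skin RNA-seq of 20 killifish libraries was analysed from the deposited counts, which the authors give as whole reads per gene with no normalization. Reads had been processed with featureCounts 1.4.6-p4, STAR 2.4.1d and bcl2fastq 1.8.4, per the submitters' processing notes. Not given in the sources used here are the build, the annotation and how strand and multiply mapped reads were treated, so overlapping genes, antisense partners and close copies may share reads. The deposited RPKM values of the authors were used only for gene lengths. Over 10228 genes, count divided by RPKM was constant within an SD of 0.001 of its natural log in 0% of genes with each library's own total and in 100% once the totals were recycled down the table, so RPKM was recomputed.

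Groups came from the age and perturbation labels and runs from the titles. Replicate numbers follow sample order and pair nothing. The chi-square per degree of freedom was at least 30.3 over 40 pairs within runs, and no library was counted as a copy of another. Tests used edgeR 4.0.16 in R 4.3.3 (TMM, filterByExpr by group, glmQLFit with robust estimation, Benjamini-Hochberg adjustment over all genes tested). Each fit held the compared libraries alone, and SE is |log2 fold change| over the root of F. The script was tested on simulated data with known changes. Alternatives were DESeq2 1.42.0, limma-voom (limma 3.58.1), 3 other scalings, no filter, all 20 libraries in one fit, other limits for members and blocks, and leaving out each library.

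The rule of a mean of 1000 CPM or more gave 142 of 26739 genes. Named members are those with the highest CPM or RPKM, up to 2 per direction with the largest called change in each comparison, the most abundant of the 3 largest blocks, and the largest and smallest SD. Members and lists were chosen with earlier results of these data known. Of 26739 identifiers, 0 matched the reference gene table (assembly NfurGRZ-RIMD1), so planned gene families were not counted and no sequence is shown.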

Additional observations from a re-analysis of the deposited data

Results flagged for a closer look

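Over 51 checks of named members and library shares in groups of 5 or 10 libraries, 1 value stood apart from its group, where chance gives about 2.55. It was Nfu_g_1_012105 in replicate 4 of 27 weeks, at 10.60 on the log2(CPM + 1) scale, with the nearest other 27-week library at 12.03.

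The 27-week runs differed under one label. A test of the difference itself called 91 members, all lower in run A than in run B, and 9 of these calls are tied to how members were chosen. The largest was Nfu_g_1_015914, with a log2 fold change of -1.30. The value of Nfu_g_1_001984, -1.04, is a description, since that gene is a member through its level in run B. No label crosses the runs, so the title numbers and whatever else separates them cannot be told apart.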

How the results depend on the processing

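With a limit of 500 CPM there were 239 members, with 2000 CPM 58, and with 1000 CPM in every library 93. The share of reads at 500 CPM was 48.9% in run A, 55.6% in run B, 51.7% in exercised and 49.6% in unexercised 9-week libraries. At 2000 CPM these were 31.5%, 35.1%, 32.8% and 30.6%, and without the most abundant member 39.3% in run A, 44.1% in run B and 39.1% in unexercised 9-week libraries. Drawing blocks at a distance of 0.2 gave 4 of at least 5 members, in place of 7. At that distance 58 of the 60 members of block 1, 17 of the 25 of block 2 and all 5 of block 6 stayed together. Block 3 kept 4 of its 8 together, under the minimum of 5. With TMM-scaled CPM the 60 members of block 1 were part of a block of 71.

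DESeq2 called 1 member higher with exercise. It called 57 lower in run A and 54 higher and 4 lower in run B, each against exercised 9-week libraries. With library totals alone 21 were lower in run A and 4 lower in run B against those libraries, and 30 were lower in run A against run B. In the same order 3452 of 18348, 2679 of 18234 and 1640 of 18306 genes were lower. One fit of all 20 libraries gave 32 members higher in run B, 15 of them in block 1, against 1562 of 19140 genes. For age it gave 15 members higher and 10 lower, against 3930 and 3833 of 19140 genes.

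Leaving out one library at a time gave 0 to 0 calls for exercise in each direction, 6 to 15 higher and 1 to 7 lower for age, 5 to 10 higher and 18 to 69 lower for run A, 12 to 16 higher and 0 to 0 lower for run B, and 0 to 1 higher and 79 to 93 lower between the runs. The 1 higher came without replicate 7 or replicate 9 of 27 weeks. Library totals alone also moved the split of all genes, to 1635 higher and 2471 lower for age, 5116 and 3452 for run A and 757 and 2679 for run B. No named member changed direction under any setting tried in the comparison it was named for, and 3 of them lost that call in at least one, as given above. The cause was not tested. No paired analysis was possible because replicate numbers follow sample order and pair no samples across groups. The lowest count of any member in any library, 195, marks the largest counting error among the members' values.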
